A study of Homo sapiens with 18 samples.

Results

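Fatty acid synthesis and desaturation were followed through 10 genes, out of 20365 listed in the deposited tables: ACLY, ACACA, FASN, SCD, SCD5, FADS1, FADS2, FADS3, ELOVL5 and ELOVL6. They were chosen by name as the enzymes that make fatty acids from citrate and then lengthen and desaturate them, and each of the 10 was expressed highly enough to be tested in both experiments. The 18 RNA-seq libraries came from PC3, a cell line established from a human prostate cancer. In the knockdown experiment a lentivirus delivered an shRNA to the cells, which made up the groups EloB KD (Elongin B targeted), EloC KD (Elongin C targeted) and Control KD, all kept in RPMI with 10% FCS. In the peptide experiment the cells received a BC-box peptide in its WT form, a Mutant form or a Scrambled form, each at 12.5 µM for 24 h in medium with 2.5% FCS. Every group had 3 libraries with replicate numbers 1 to 3, and nothing in the labels says that they came from separate cultures, so the p-values measure the spread between these libraries, which may be technical. The number of hairpins for each gene and the time from infection to harvest are not given in the sources used here, and the Control KD cells carried a lentivirus too. The Elongin B/C dimer joins Elongin A in a transcription elongation factor, and it links substrate receptors to cullin ubiquitin ligases through the BC-box, the motif that the peptides are named for.

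Cells build fatty acids in the cytosol: citrate exported from mitochondria is cut to acetyl-CoA, carboxylated to malonyl-CoA and assembled into palmitate. Elongases of the endoplasmic reticulum then lengthen the chain, and desaturases insert double bonds using electrons passed on by cytochrome b5. The sterol regulatory element-binding proteins (SREBPs) are the main transcription factors of these genes, and prostate cancers are known for a high rate of fatty acid synthesis and for abundant FASN.

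Between 40.3 and 57.2 M reads (1 M is 1e6 reads) were counted per library in the knockdown experiment and between 31.7 and 34.7 M in the peptide experiment. Levels are read counts scaled by DESeq2 within each experiment, called normalised counts here, and no test was made across the experiments, which were scaled separately and differ in serum. ELOB fell by 2.82 on the log2 scale in EloB KD (limma, adjusted p = 3.55e-05) and ELOC fell by 3.12 in EloC KD (adjusted p = 1.41e-07), as the labels say. ELOA, the Elongin A gene, also fell by 0.73 in EloC KD (adjusted p = 0.000332). The epithelial markers KRT8, KRT18, EPCAM and HOXB13 were present in all 18 libraries at 366 normalised counts or more, while CDH1 was lower, with 81 to 979 in knockdown libraries and 74.8 to 158 in peptide libraries. KLK3, an androgen target that PC3 cells are known to lack, had 0 reads throughout. Of the endothelial markers, PECAM1 lay between 690 and 2240, while CDH5 reached at most 24.6 and VWF at most 10.2. Of the fibroblast markers, COL1A1 lay between 183 and 2460 and COL3A1 between 23 and 229, while PDGFRB reached at most 56.2. The leukocyte markers PTPRC, CD3E and CD14 reached at most 13.4, 3.16 and 21.8. The adipocyte markers ADIPOQ, PLIN1 and LEP reached at most 0.962, 85.7 and 2.84. In bulk RNA, fewer cells of a kind and less RNA per cell cannot be told apart.

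The 10 genes differed widely in abundance. Per kb of annotated exon in Control KD, SCD was the most abundant at 7541 ± 1810.3 normalised counts (SD, n = 3). ACLY followed at 3358 ± 280.2, ELOVL5 at 2271 ± 76.6, FADS2 at 1785 ± 150.2, FADS1 at 1575 ± 307 and FASN at 1292 ± 443. The next step down was large, to ELOVL6 at 275 ± 21.6, SCD5 at 275 ± 27.6, FADS3 at 248 ± 26.2 and ACACA at 171 ± 15.7. The neighbouring values of FADS2, FADS1 and FASN lay within their spread, and so did those of ELOVL6, SCD5 and FADS3. With the Scrambled peptide SCD (3675 ± 510) and ACLY (1922 ± 117.5) again headed the order and ACACA (72.4 ± 4.48) closed it, while FASN came after them at 1627 ± 261. Reads of the 10 genes made up 0.244% ± 0.0208 of all reads in Control KD, 0.163% ± 0.0151 in EloB KD and 0.138% ± 0.0147 in EloC KD. The same share was 0.231% ± 0.0208 with the Scrambled, 0.252% ± 0.0282 with the Mutant and 0.234% ± 0.0139 with the WT peptide.

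Most of the pathway fell when either Elongin was depleted, and the enzymes did not fall alike. In EloB KD 6 of the 10 genes were lower than in Control KD and 0 higher, with an adjusted p under 0.05 in limma, where 11.2% of the 13764 genes tested were called lower, 9.34% higher and 20.5% in either direction. In EloC KD 7 were lower and 1 was higher, where 21.2% of all genes were called lower and 21.3% higher. The median log2 fold change of the 10 was -0.44 in EloB KD and -0.84 in EloC KD, against 0.00351 and 0.00679 over all genes tested. The groups did not overlap for 7 genes in EloB KD, against 38.4% of all genes, and for 9 in EloC KD, against 53.7%. Both comparisons use the same Control KD libraries, so their values are set side by side and not counted as independent. When replicate number entered the fit as a block, 7 of the 10 were called lower in EloB KD (36.3% of all genes called) and 8 lower and 1 higher in EloC KD (57% called).

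**Figure D1:**
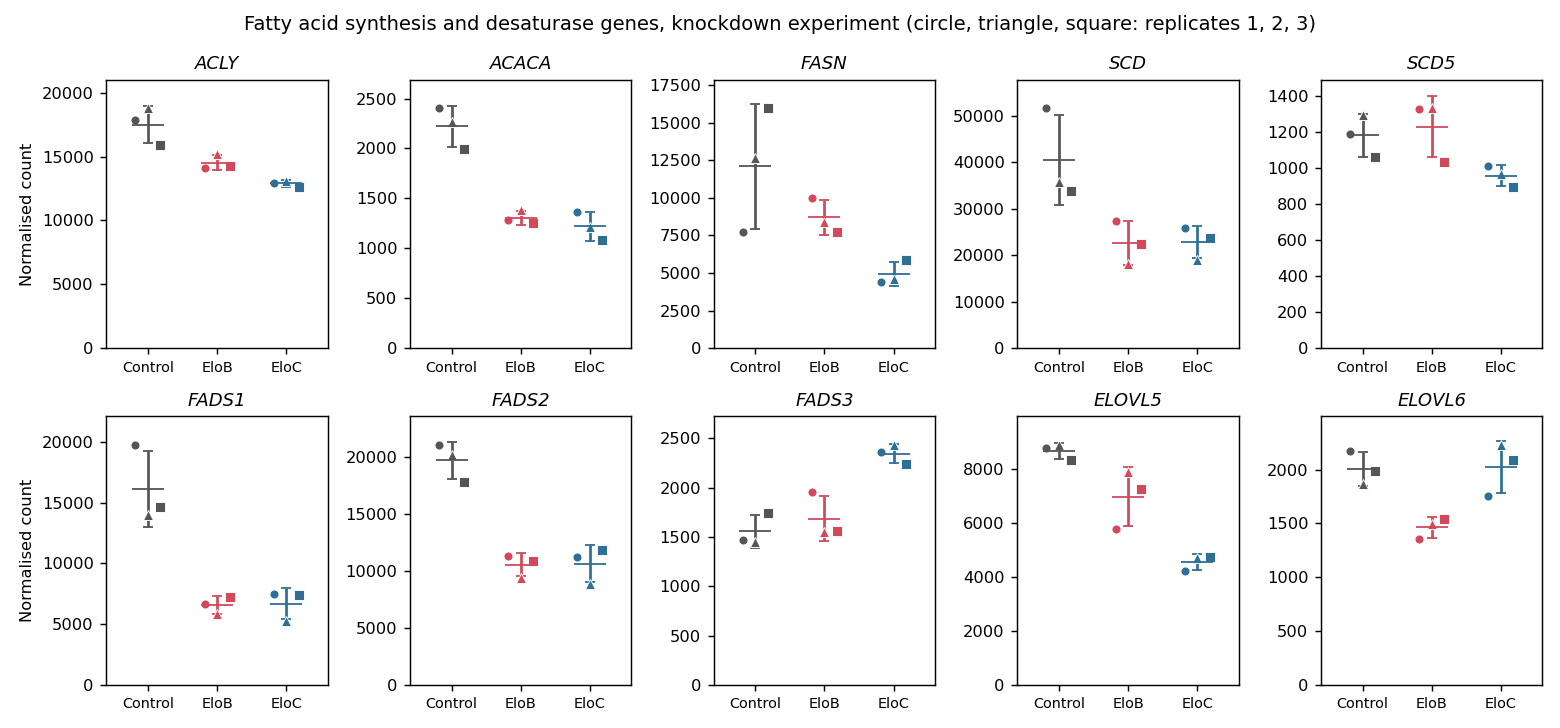
Normalised counts (vertical axis, from 0) of the 10 genes in Control KD, EloB KD and EloC KD; points are libraries, the horizontal line is the mean and the bar is ± 1 SD. FADS1, FADS2, SCD and ACACA lie below Control KD in both knockdowns, FASN and ELOVL5 lie lowest in EloC KD, ELOVL6 is low in EloB KD and FADS3 is high in EloC KD.

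ACLY (chr17:41866908-41930542 in GRCh38, minus strand) encodes ATP-citrate lyase, which cuts exported citrate into the acetyl-CoA used for fatty acids and sterols. Its normalised counts were 17868, 18771 and 15911 in Control KD, 14132, 15191 and 14245 in EloB KD and 12973, 13113 and 12604 in EloC KD. Every knockdown library lay below every control library, and EloC KD below EloB KD. The fall was 0.27 ± 0.08 (SE) on the log2 scale in EloB KD, 1.20-fold, at an adjusted p of 0.0449 in limma, and 0.44 ± 0.08 in EloC KD, 1.36-fold (adjusted p = 0.00193). The EloB KD call stood close to the threshold: it was lost in edgeR (adjusted p = 0.0538) and with quantile scaling (log2 fold change -0.12, adjusted p = 0.272), and in 5 of the 6 fits that leave out 1 library. The annotation places 156 bases of an antisense transcript over the ACLY exons.

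ACACA (chr17:37084988-37406818, minus strand) encodes acetyl-CoA carboxylase alpha, the enzyme that makes malonyl-CoA and is held to be the rate-limiting step of the pathway. It measured 2400.4, 2261 and 1999 in Control KD, 1281, 1384 and 1252 in EloB KD and 1365, 1211 and 1079.9 in EloC KD. The knockdown groups overlapped each other and stood well below the control. The fall was 0.76 ± 0.11 on the log2 scale in EloB KD (1.70-fold, adjusted p = 0.00135) and 0.87 ± 0.11 in EloC KD (1.82-fold, adjusted p = 0.000226).

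FASN (chr17:82078333-82098332, minus strand) encodes fatty acid synthase, which assembles palmitate from malonyl-CoA. Its normalised counts were 7701, 12641 and 15950.3 in Control KD, 9980.3, 8415 and 7726 in EloB KD and 4378, 4571 and 5836 in EloC KD. The EloC KD libraries were the lowest. The EloB KD libraries overlapped Control KD, whose replicate 1 was low. FASN fell by 1.24 ± 0.23 on the log2 scale in EloC KD, 2.37-fold (limma, adjusted p = 0.00152). In EloB KD the log2 fold change was -0.42 ± 0.23 (adjusted p = 0.222), with a 95% interval from -0.92 to 0.08. In 15 of 18 alternative fits this value stayed uncalled, and over all 18 it ranged from -0.714 to -0.189. Without replicate 1 of Control KD it was -0.71 (adjusted p = 0.0162). FASN transcripts are rich in GC, at 65.3% against a median of 48.0% over the genes tested, and with each library corrected for GC content the EloB KD value was -0.52 (adjusted p = 0.00602).

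SCD (chr10:100347124-100364834, plus strand) encodes stearoyl-CoA desaturase, which makes oleate and palmitoleate and is the most abundant of these transcripts. It measured 51587, 35820 and 33895 in Control KD, 27428, 18091 and 22414 in EloB KD and 25807, 19053 and 23639 in EloC KD, so that the highest knockdown library stayed below the lowest control. SCD fell by 0.83 ± 0.19 on the log2 scale in EloB KD (1.78-fold, adjusted p = 0.0124) and by 0.81 ± 0.19 in EloC KD (1.75-fold, adjusted p = 0.00637). Its paralogue SCD5 (chr4:82629539-82798857, minus strand), the other human stearoyl-CoA desaturase, moved less. SCD5 had 1191, 1295 and 1059 normalised counts in Control KD, 1325, 1330.2 and 1034 in EloB KD and 1012, 965 and 895 in EloC KD. The EloB KD libraries overlapped the control, and the EloC KD libraries lay just below it. The SCD5 log2 fold change was 0.05 ± 0.13 in EloB KD (95% interval -0.23 to 0.33, adjusted p = 0.807) and -0.30 ± 0.13 in EloC KD (adjusted p = 0.0793, or 0.0114 with the replicate block). Per kb, SCD5 stood at 3.77% ± 0.825 of SCD in Control KD, 6.99% ± 1.9 in EloB KD and 5.32% ± 0.877 in EloC KD.

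The sequences upstream of the starts of SCD and SCD5 are shown because these paralogues responded differently. They come from RefSeq (GRCh38.p14) and cover the part of the 250 bases before the start that no annotated exon covers. The capitals mark CCAAT boxes on either strand (CCAAT or ATTGG), the motif of NF-Y, a factor known to act beside SREBPs.
SCD, chr10:100346983-100347123, plus strand: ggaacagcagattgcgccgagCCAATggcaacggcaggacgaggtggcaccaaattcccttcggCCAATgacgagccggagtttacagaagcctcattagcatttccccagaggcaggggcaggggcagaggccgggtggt
SCD5, chr4:82798858-82799046, minus strand: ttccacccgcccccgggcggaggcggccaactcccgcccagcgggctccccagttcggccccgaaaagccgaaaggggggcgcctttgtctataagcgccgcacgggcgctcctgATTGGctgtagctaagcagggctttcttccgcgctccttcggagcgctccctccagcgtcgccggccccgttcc
SCD had a CCAAT box at -229 to -225 and at -186 to -182 from its start, and SCD5 had 1 at -135 to -131. The box is common: 32.0% of 35116 upstream windows of 250 bases in the RefSeq table hold it. Of the 9 members with a window, 6 had it in any of their windows. ACACA, ACLY and FADS2 have several windows, so this count by gene is not the same measure as the share of windows. The sterol regulatory element, searched as TCACNCCAC on both strands, was in 0.883% of windows and in 0 of the 9. SREBF2, which encodes an SREBP, had a match at -133 to -125. No match says only that these letters are not in the window, and a match is not a measured site.

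FADS1 and FADS2 had the largest falls of the 10 genes in EloB KD. FADS1 (chr11:61799625-61829318, minus strand) encodes the desaturase that makes arachidonic and eicosapentaenoic acid. It had 19720.3, 13971 and 14634 normalised counts in Control KD, 6659, 5812 and 7266 in EloB KD and 7449, 5213 and 7388 in EloC KD. All 6 knockdown libraries were far below the lowest control, and the knockdowns overlapped each other. FADS1 fell by 1.28 ± 0.17 on the log2 scale in EloB KD (2.43-fold, adjusted p = 0.00068) and by 1.27 ± 0.17 in EloC KD (2.41-fold, adjusted p = 0.000236). FADS2 (chr11:61792980-61867354, plus strand) encodes the desaturase of the first step from the essential fatty acids. Its normalised counts were 21015, 20193 and 17825 in Control KD, 11328, 9390.3 and 10841 in EloB KD and 11212, 8847 and 11857 in EloC KD, again with no overlap between control and knockdown. FADS2 fell by 0.90 ± 0.12 in both EloB KD (1.87-fold, adjusted p = 0.000884) and EloC KD (1.86-fold, adjusted p = 0.00031).

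FADS3 (chr11:61873519-61892051, minus strand), the remaining gene of the cluster, encodes a desaturase that acts on sphingoid bases, and it did not fall. It had 1472, 1452 and 1747 normalised counts in Control KD, 1953, 1547 and 1560.5 in EloB KD and 2364, 2431 and 2244 in EloC KD. The EloC KD libraries were the highest without overlap, and the EloB KD libraries overlapped the control. FADS3 rose by 0.60 ± 0.12 on the log2 scale in EloC KD, 1.51-fold (limma, adjusted p = 0.00227), while its log2 fold change in EloB KD was 0.11 ± 0.12 (95% interval -0.14 to 0.37, adjusted p = 0.535). Per kb, FADS3 stood at 16.2% ± 3.7 of FADS1 in Control KD, 42% ± 6.49 in EloB KD and 59% ± 14.7 in EloC KD. FADS1 stood at 88.1% ± 13.3 of FADS2 in Control KD, 67.4% ± 4.48 in EloB KD and 67.4% ± 4.06 in EloC KD.

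The RefSeq start of FADS1 lies 599 and 800 bases from the FADS2 starts, on the opposite strand, and 74542 bases from the start of FADS3. Annotated exons of FADS1 and FADS2 overlap over 490 bases on opposite strands, 4.79% of the FADS1 and 4.44% of the FADS2 exon length. Whether the counting used strand is not given in the sources used here, so reads in those bases may belong to either gene. The upstream sequences of FADS1, FADS2 and FADS3 are shown for the contrast between neighbours that fell and one that did not, outside annotated exons, with CCAAT boxes in capitals.
FADS1, chr11:61817198-61817253, minus strand: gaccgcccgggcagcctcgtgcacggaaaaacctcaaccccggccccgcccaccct
FADS2, chr11:61816154-61816255, plus strand: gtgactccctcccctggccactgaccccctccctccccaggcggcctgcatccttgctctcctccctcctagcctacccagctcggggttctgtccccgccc
FADS3, chr11:61891546-61891795, minus strand: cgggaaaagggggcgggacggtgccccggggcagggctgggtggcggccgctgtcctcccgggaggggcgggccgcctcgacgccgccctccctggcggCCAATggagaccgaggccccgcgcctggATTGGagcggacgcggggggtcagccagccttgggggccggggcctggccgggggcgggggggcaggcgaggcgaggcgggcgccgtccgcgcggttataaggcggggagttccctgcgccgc
No CCAAT box was found in the 250 bases before the FADS1 start or before either FADS2 start, while FADS3 had a match at -151 to -147 and another at -123 to -119. The GC box (GGGCGG on either strand), a common promoter motif that 42.6% of windows hold, was found upstream of FADS1, of FADS3 and of the FADS2 start whose sequence is shown, but not of the other FADS2 start.

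The genes beside the cluster on chromosome 11 changed in both directions or did not pass the test. MYRF fell by 0.90 on the log2 scale in EloB KD (adjusted p = 0.0101) and by 0.64 in EloC KD (adjusted p = 0.0235). FEN1, a flap endonuclease gene that shares 49 exon bases with FADS2, had log2 fold changes of -0.04 in EloB KD and -0.11 in EloC KD (adjusted p = 0.907 and 0.703). On the other side of FADS3, RAB3IL1 rose by 1.56, BEST1 by 1.33 and FTH1, the ferritin heavy chain gene, by 1.80 in EloC KD (adjusted p = 0.000111, 0.000291 and 0.00018). In EloB KD those genes had log2 fold changes of 0.04, 0.12 and 0.07. BEST1 and FTH1 overlap on opposite strands, and FTH1 has many near-identical pseudogene copies, so their counts are uncertain. Of the 8 neighbours listed, 0 rose and 2 fell in EloB KD (MYRF and SYT7), or 25% called against 20.5% of all genes. In EloC KD 4 rose and 2 fell, or 75% against 42.5% of all genes. There DAGLA was among those that rose and TMEM258 among those that fell. SYT7, DAGLA and TMEM258 are named because the counts are small, after their values were seen.

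**Figure D2:**
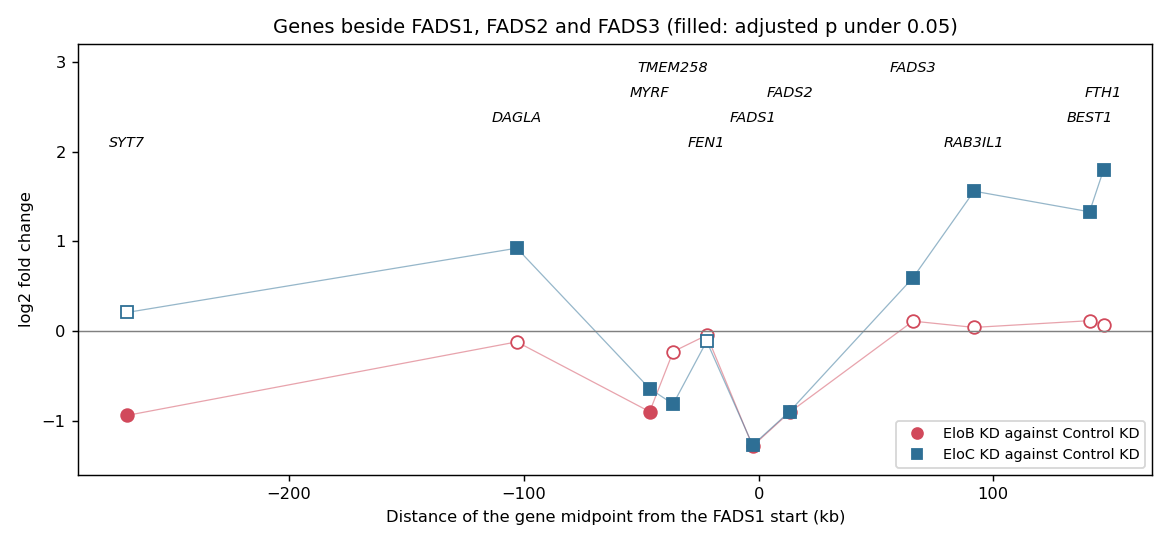
log2 fold change (vertical axis) of FADS1, FADS2, FADS3 and 8 neighbouring genes against the distance in kb of each gene's midpoint from the FADS1 start; circles are EloB KD and squares EloC KD, each against Control KD, filled where the limma adjusted p is under 0.05, with lines only to guide the eye. FADS1 and FADS2 are low in both, and the genes from FADS3 to FTH1 are high in EloC KD and near 0 in EloB KD.

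Of the elongases, ELOVL5 was lowest in EloC KD and ELOVL6 in EloB KD. ELOVL5 (chr6:53267398-53349179, minus strand) lengthens polyunsaturated fatty acids made by FADS1 and FADS2. It had 8772, 8879.8 and 8329 normalised counts in Control KD, 5762, 7876 and 7265 in EloB KD and 4226, 4681 and 4750.2 in EloC KD, so that the 3 groups did not overlap and EloC KD was lowest. The fall was 0.93 ± 0.11 on the log2 scale in EloC KD (1.90-fold, limma adjusted p = 0.000152). In EloB KD the log2 fold change was -0.33 ± 0.11 (adjusted p = 0.0665), and with the replicate block the adjusted p was 0.0166. Without replicate 2 of EloB KD it was -0.42 (adjusted p = 0.0379). In 15 of 18 alternative fits the ELOVL5 value in EloB KD stayed uncalled, and over all 18 it ranged from -0.42 to -0.195. ELOVL6 (chr4:110045846-110199199, minus strand) lengthens palmitate to stearate, the substrate of SCD. Its normalised counts were 2176, 1863 and 1989 in Control KD, 1357, 1493 and 1537 in EloB KD and 1758, 2227 and 2089 in EloC KD. Here EloB KD was the low group and EloC KD overlapped the control. ELOVL6 fell by 0.46 ± 0.11 in EloB KD (1.37-fold, adjusted p = 0.0163), a call lost without replicate 1 of Control KD (adjusted p = 0.0552) or replicate 1 of EloB KD (adjusted p = 0.055). In EloC KD its log2 fold change was 0.01 ± 0.11 (95% interval -0.24 to 0.25, adjusted p = 0.967). ELOVL5 stood at 828% ± 74.1 of ELOVL6 per kb in Control KD, at 909% ± 98.2 in EloB KD and at 432% ± 29 in EloC KD.

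Set directly against each other, the knockdowns differed in 5 of the 10 genes by limma, where 46.1% of all genes were called. In EloB KD the levels of FASN, SCD5 and ELOVL5 were above those in EloC KD, where 22.3% of all genes were called higher, and FADS3 and ELOVL6 were lower, where 23.8% were called lower. The groups did not overlap for 6 of the 10, against 56.3% of all genes. The largest difference was that of FASN, 0.82 ± 0.23 on the log2 scale (adjusted p = 0.0128), followed by ELOVL5 at 0.60 ± 0.11 (adjusted p = 0.00155). FADS3 differed by -0.48 ± 0.12 (adjusted p = 0.00634) and ELOVL6 by -0.46 ± 0.11 (adjusted p = 0.00622). The SCD5 difference of 0.35 ± 0.13 (adjusted p = 0.0419) was lost in 5 of the 6 fits that leave out 1 library, at adjusted p-values from 0.0575 to 0.131. ACLY differed by 0.17 ± 0.08 (adjusted p = 0.118, or 0.0472 with the replicate block, under which 59.4% of all genes were called). For the genes that fell most in EloB KD no difference between the knockdowns passed the test: the 95% interval was -0.38 to 0.36 for FADS1, -0.28 to 0.26 for FADS2, -0.44 to 0.40 for SCD and -0.14 to 0.36 for ACACA.

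**Figure D3:**
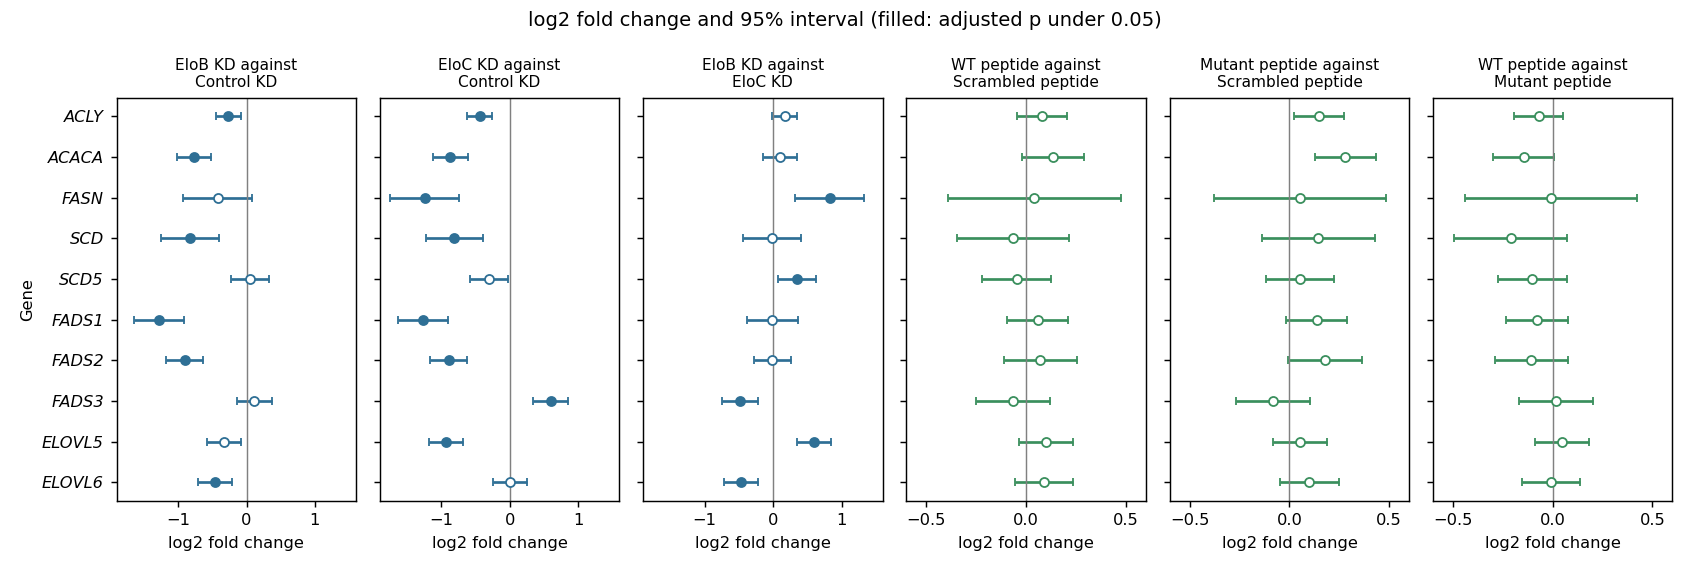
log2 fold change (horizontal axis) with its 95% interval for the 10 genes in the 6 comparisons, from limma; filled points have an adjusted p under 0.05, and the axis of the 3 peptide panels is narrower. FADS1 sits near -1.28 in EloB KD and -1.27 in EloC KD, whereas in the peptide panels no point passes -0.21 or 0.28.

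The genes that regulate SREBPs are the ones known to set the level of this pathway. SREBF1, whose SREBP drives mainly fatty acid genes, had 1966, 2119.8 and 2948 normalised counts in Control KD, 1790.0, 1408 and 1637 in EloB KD and 1731, 1407 and 2103 in EloC KD. The EloB KD libraries lay below the control and the EloC KD libraries overlapped it, with log2 fold changes of -0.52 (adjusted p = 0.0639) and -0.42 (adjusted p = 0.0825). SREBF2, whose SREBP drives mainly sterol genes, fell by 0.46 in EloB KD (adjusted p = 0.00687) and by 0.91 in EloC KD (adjusted p = 6e-05). INSIG1, which holds SREBPs in the endoplasmic reticulum and is itself an SREBP target, fell from 4693, 3365 and 2693 in Control KD to 1904, 1237 and 1351 in EloB KD and 1153, 987 and 1268 in EloC KD. No knockdown library reached the lowest control, and the falls were 1.25 (adjusted p = 0.00259) and 1.63 (adjusted p = 0.000215) on the log2 scale. Of the proteases that release SREBPs, MBTPS2 fell by 0.89 in EloB KD and by 0.41 in EloC KD (adjusted p = 0.000177 and 0.00423), and MBTPS1 fell by 0.65 in EloC KD (adjusted p = 0.000116), with a log2 fold change of -0.10 in EloB KD (adjusted p = 0.387). SCAP, which escorts SREBPs to the Golgi, and INSIG2 had log2 fold changes of 0.10 and 0.11 in EloB KD (adjusted p = 0.501 and 0.584) and -0.11 and -0.12 in EloC KD (adjusted p = 0.407 and 0.443). Of the 12 regulators, 3 fell and 0 rose in EloB KD, which is 25% called against 20.5% of all genes. In EloC KD 4 fell and 2 rose, or 50% against 42.5% of all genes. Those that rose were SPRING1 and NR1H3, the gene of the oxysterol receptor LXR alpha, both named after their values were seen.

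Of the genes that supply acetyl-CoA and NADPH, those that fell in EloB KD were CS, which makes citrate, by 1.25 on the log2 scale, and PDHA1, a subunit of the pyruvate dehydrogenase that makes mitochondrial acetyl-CoA, by 1.22 (adjusted p = 0.000104 and 0.000642). CS had 14916, 14138 and 13252 normalised counts in Control KD against 4949, 6126 and 6781 in EloB KD. In EloC KD CS stood at 11902, 11265 and 11781, with a log2 fold change of -0.27 (adjusted p = 0.0692), and that of PDHA1 was 0.01 (adjusted p = 0.949). The genes that fell in EloC KD included ACSS1, a mitochondrial acetyl-CoA synthetase, by 1.88 (adjusted p = 5.95e-05), and SLC25A1, the citrate carrier, by 0.90 (adjusted p = 0.00167). In all, 2 of 13 genes of the list fell and 0 rose in EloB KD (median log2 fold change -0.18), which is 15.4% called against 20.5% of all genes. In EloC KD 6 fell and 1 rose (median -0.27), or 53.8% against 42.5% of all genes. The gene that rose is not reported by name.

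The other elongation and desaturation genes split in direction. ELOVL1, which lengthens saturated very long chains, fell by 0.49 in EloB KD and by 1.26 in EloC KD on the log2 scale (adjusted p = 0.0107 and 2.77e-05). HACD3, a dehydratase of the elongation cycle, fell by 1.50 in EloC KD (adjusted p = 9.59e-06), from 9672, 8918 and 8645 normalised counts in Control KD to 3151, 2780.5 and 3720. Of 11 further elongation genes, 3 fell and 1 rose in EloB KD (HACD2 and HSD17B12 beside ELOVL1, and ELOVL3, named after its value was seen). In EloC KD 2 fell and 0 rose. These are 36.4% and 18.2% called, against 20.5% and 42.5% of all genes. Electron carriers of the desaturases were among the genes that rose. CYB5R2 rose by 0.99 in EloB KD and 1.01 in EloC KD, CYB5R1 by 0.42 and 0.72, and CYB5A, cytochrome b5 itself, rose by 0.63 in EloC KD, with 0.44 (adjusted p = 0.116) in EloB KD. The 8 genes of the list are 6 electron carriers and the ceramide desaturases DEGS1 and DEGS2. Of them 2 rose and 1 fell in EloB KD, or 37.5% called against 20.5% of all genes. In EloC KD 5 rose and 1 fell, or 75% against 42.5%, with a median log2 fold change of 0.61. CYB5R3, named after its values were seen, was the gene that fell in EloB KD, and it rose in EloC KD along with CYB5R4. DEGS1 was the one that fell in EloC KD, by 0.45.

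Genes that use or burn fatty acids were also measured. In EloB KD limma called 18.2% of the beta-oxidation, 11.1% of the mitochondrial fatty acid synthesis and 18.8% of the glycerolipid list. It called 16.7% of the activation, 28.6% of the AMPK and 34.8% of the sterol synthesis list there, against 20.5% of all genes. In EloC KD the shares in that order were 72.7%, 66.7%, 43.8%, 33.3%, 0% and 60.9%, against 42.5% of all genes. In EloC KD 15 of 22 beta-oxidation genes fell and 1 rose, with a median log2 fold change of -0.48; HADHB, of the mitochondrial trifunctional protein, fell by 0.97 and CPT2, the inner carnitine palmitoyltransferase, by 1.05 (adjusted p = 2.57e-05 and 9.05e-05). The gene that rose was PPARA, named after its value was seen. In EloB KD 3 of the 22 fell and 1 rose, CPT1A, ACADVL and ACADM against ACAA1, likewise named afterwards, with a median of -0.01. The mitochondrial fatty acid synthesis list had 6 of 9 genes lower in EloC KD (median -0.42), among them ACACB, CBR4, HSD17B8 and MECR, and 1 of 9 lower in EloB KD, MECR. ACACB, another acetyl-CoA carboxylase gene, is counted in this list but is not an enzyme of the mitochondrial pathway itself. Of 16 glycerolipid genes, 4 rose in EloC KD (GPAT3, GPAT4, DGAT2 and PNPLA2) and 3 fell (LPCAT3, AGPAT1 and AGPAT3), with GPAT3 higher by 1.21 (adjusted p = 8.86e-05). In EloB KD 2 of them rose (DGAT1 and DGAT2) and 1 fell (PLIN2). Among 12 genes of fatty acid uptake and activation, 2 fell in EloB KD, ACSL1 (-0.74) and ACSL3, and in EloC KD 2 rose, ACSL4 and SLC27A4, and 2 fell, SLC27A2 and SLC27A3 (-1.78). PNPLA2, AGPAT1, AGPAT3, DGAT1, PLIN2, ACSL3 and SLC27A4 are named because these counts are small, after their values were seen. AMPK, the kinase that phosphorylates and inhibits acetyl-CoA carboxylase, had 2 of 7 subunit and kinase genes lower in EloB KD: PRKAB1 fell by 1.04 and PRKAG2 by 0.62 (adjusted p = 0.000277 and 0.00351). In EloC KD their log2 fold changes were 0.02 and 0.06 (adjusted p = 0.92 and 0.696). Sterol synthesis, the sister pathway under SREBPs, had 7 of 23 genes lower and 1 higher (MVK, named likewise) in EloB KD (median -0.26) and 14 lower and 0 higher in EloC KD (median -0.49), where ACAT2 fell by 1.10, FDPS by 0.71 and TM7SF2 by 1.42. With the replicate block, under which 36.3% of all genes were called in EloB KD, the list counts there were 8 lower and 2 higher for beta-oxidation, 5 and 1 for acetyl-CoA and NADPH supply, 11 and 1 for sterol synthesis, 3 and 1 for fatty acid activation, 1 and 4 for other desaturation, and 2 and 0 for mitochondrial fatty acid synthesis. In EloC KD, where the block called 57% of all genes, they were 3 lower and 4 higher for other elongation and 5 and 3 for fatty acid activation. The SREBP regulators had 6 and 3 there, and glycerolipid synthesis 3 and 7. The counts were 15 and 1 for sterol synthesis, 15 and 2 for beta-oxidation and 7 and 1 for acetyl-CoA and NADPH supply. Mitochondrial fatty acid synthesis had 6 and 1, and AMPK had 1 and 0. In EloB KD the block gave 4 and 0 for the SREBP regulators, 2 and 2 for glycerolipid synthesis and 3 and 0 for AMPK.

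**Figure D4:**
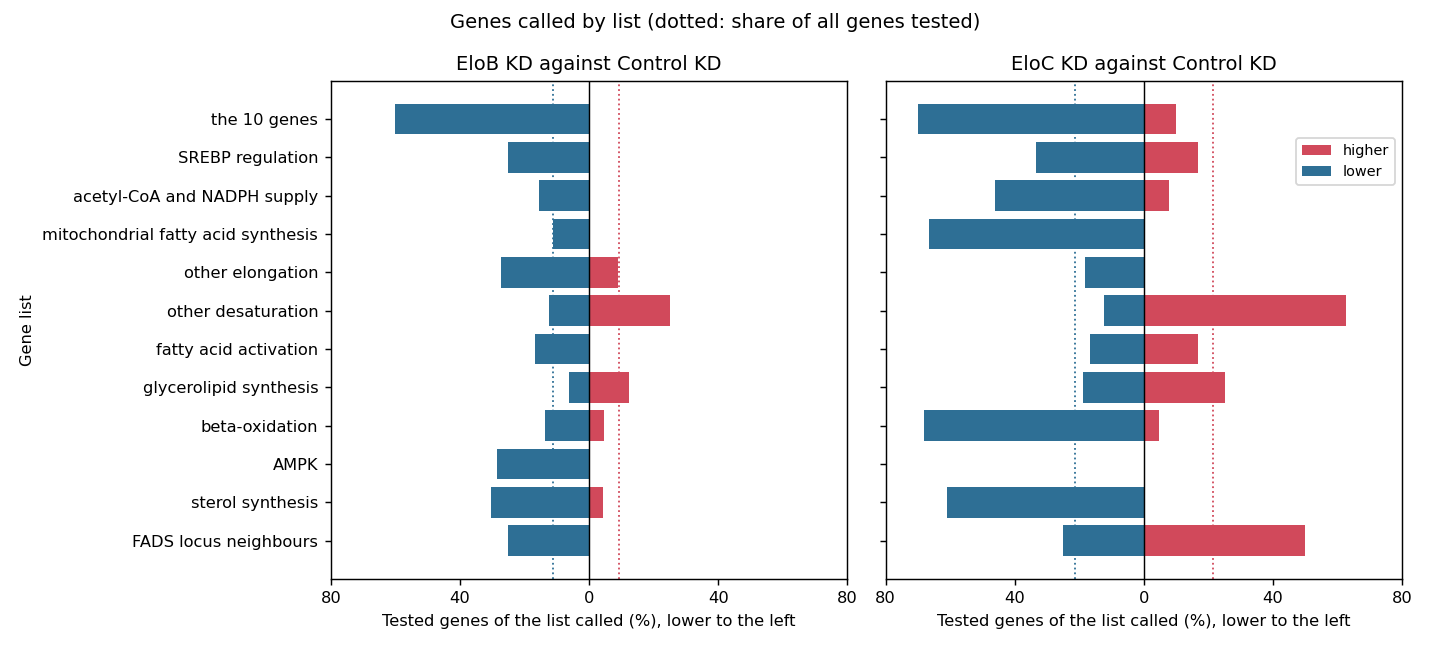
Share of the tested genes of each list (horizontal axis, %) called lower (bars to the left) and higher (bars to the right) than Control KD by limma, in EloB KD and EloC KD; dotted lines are the shares over all genes tested. The bar of the 10 genes reaches 60% lower in EloB KD, and in EloC KD the mitochondrial fatty acid synthesis, beta-oxidation and sterol synthesis bars also pass 60%.

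Of all genes tested, those whose log2 level followed FADS1 most closely over the 9 knockdown libraries were FAM20A (Pearson r = 0.99), FKBP11 (0.986), ARHGAP29 (0.985), FGL2 (0.984) and XK (0.984). Over the 9 peptide libraries the same genes gave 0.722, 0.034, 0.425, 0.381 and 0.756. For FASN they were HES6 (0.958), ADCY7 (0.954), SPDEF (0.954), MDK (0.953) and REEP4 (0.95) in the knockdown libraries and 0.662, 0.564, 0.676, -0.453 and 0.241 in the peptide libraries. FADS1 and FADS2 gave 0.982 and 0.872 with each other, while ELOVL5 and ELOVL6 gave -0.0788 and 0.747. These are descriptions over libraries that share groups and replicate numbers.

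With the BC-box peptides the fold changes of the 10 genes were small. Against the Scrambled peptide, limma called 0 of the 10 with the WT peptide, where 1.43% of 13105 genes were called and 0.839% called higher, and 0 with the Mutant peptide, where 0% were. None of the 10 was called between the WT and the Mutant peptide either, again with 0% of all genes. At an unadjusted p under 0.05, limma gave 0 of the 10 for WT against Scrambled, 2 for Mutant against Scrambled and 0 for WT against Mutant. edgeR called 0 in each of the 3 comparisons, and DESeq2 called 1, ACACA, with the Mutant peptide and 0 in the others. Over all genes tested, limma called 0 for Mutant against Scrambled (1142 at an unadjusted p under 0.05, 0 in edgeR and 184 in DESeq2) and 0 for WT against Mutant (898, 0 and 63). For WT against Scrambled it called 188 (1753, 198 and 582 in the same order). The log2 fold changes lay between -0.07 (SCD) and 0.13 (ACACA) for WT against Scrambled, between -0.08 (FADS3) and 0.28 (ACACA) for Mutant against Scrambled, and between -0.21 (SCD) and 0.05 (ELOVL5) for WT against Mutant. Their medians were 0.06, 0.12 and -0.07, against -0.000984 to 0.00255 over all genes.

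**Figure D5:**
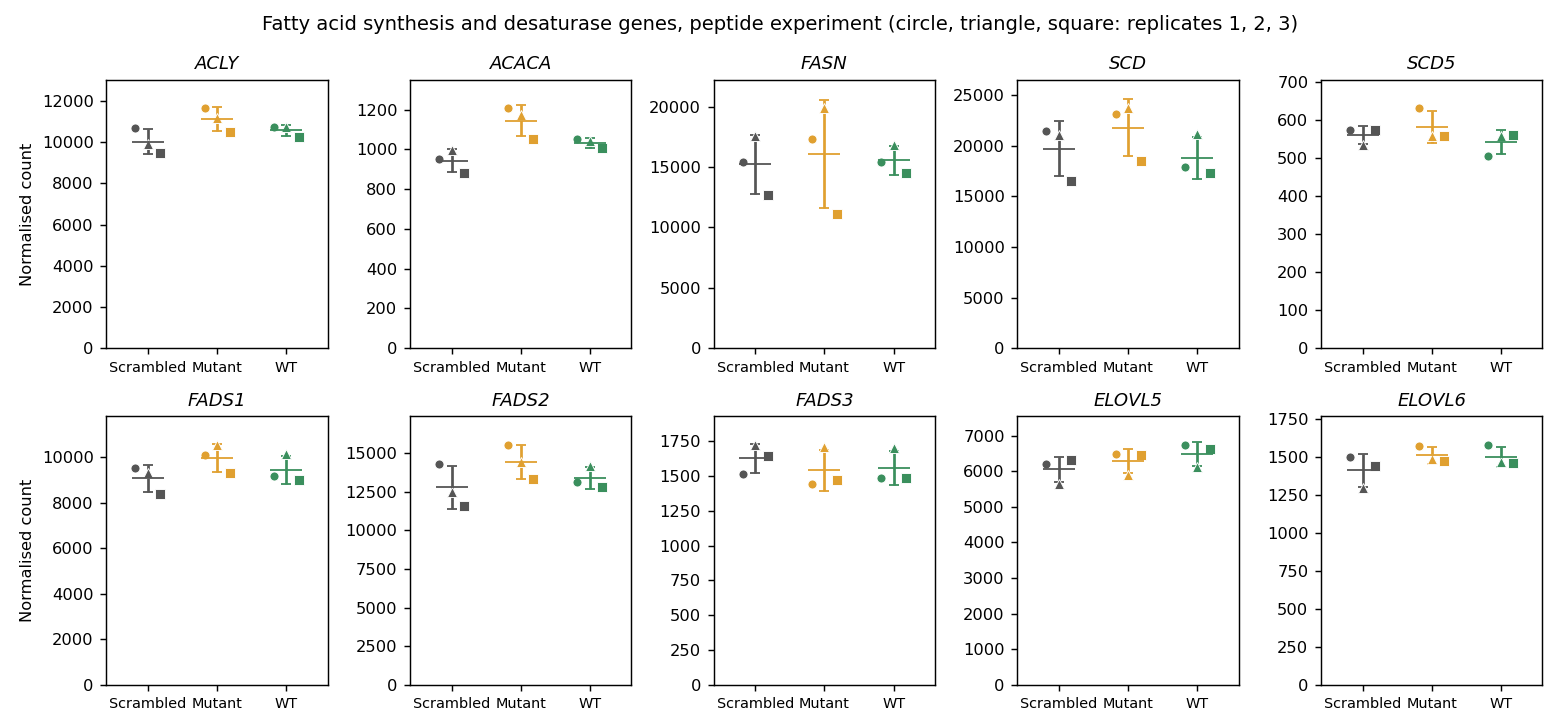
Normalised counts (vertical axis, from 0) of the 10 genes with the Scrambled, Mutant and WT peptide; points are libraries, the horizontal line is the mean and the bar is ± 1 SD. The groups overlap for most genes, and replicate 3 is the lowest of its group for ACLY, ACACA, FASN, SCD, FADS1 and FADS2 in every group.

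Libraries with the same replicate number moved together in this experiment, so the fit with the replicate number as a block is given where it changed a call. ACACA had 953, 995 and 879 normalised counts with the Scrambled, 1206, 1175 and 1054.6 with the Mutant and 1054.4, 1040.5 and 1005 with the WT peptide. The Mutant libraries were the highest, WT lay between and no groups overlapped. Mutant and WT were only just apart, with Mutant replicate 3 at 1054.61 and WT replicate 1 at 1054.4. ACACA was the 1 member of the 10 without overlap in each of the 3 comparisons. Of all genes, 19.7% had none for WT against Scrambled, 13.7% for Mutant against Scrambled and 12.1% for WT against Mutant. The Mutant against Scrambled difference was 0.28 ± 0.07 on the log2 scale (limma adjusted p = 0.202, or 0.00228 with the block), and the WT against Scrambled difference was 0.13 (adjusted p = 0.444, or 0.0722 with the block). With the block 4 of the 10 genes were called higher with the Mutant than with the Scrambled peptide, where 8.3% of all genes were called: ACACA, ACLY, FADS1 and FADS2. ACLY measured 10681, 9940.3 and 9464 with the Scrambled and 11643, 11203 and 10497 with the Mutant peptide, higher in each replicate pair though the groups overlapped (0.15, adjusted p = 0.461, or 0.00685 with the block). FADS1 measured 9518, 9311 and 8379 against 10089, 10532 and 9287 (0.14, adjusted p = 0.622, or 0.0241 with the block). FADS2 measured 14292, 12481 and 11582 against 15521, 14432 and 13357 (0.18, adjusted p = 0.593, or 0.0255 with the block). For both desaturases the Mutant library was the higher one in all 3 pairs. INSIG1 was also higher in all 3 pairs, by 0.37 (adjusted p = 0.424, or 0.00712 with the block), and so were the sterol synthesis genes ACAT2, IDI1 and FDPS, by 0.36, 0.33 and 0.25 (adjusted p = 0.202, 0.193 and 0.277, or 0.00237, 0.00236 and 0.00202 with the block). Of the 23 sterol synthesis genes, the block called 12 higher and 0 lower with the Mutant peptide, and 9 higher and 1 lower with the WT peptide, each against Scrambled. Under the block 8.3% and 16.2% of all genes were called in these comparisons. The median log2 fold changes of the sterol synthesis genes were 0.23 and 0.15. Without the block 11 and 5 of them had an unadjusted p under 0.05 and none an adjusted one in limma. Of all 13105 genes tested, 1142 and 1753 had an unadjusted p under 0.05 in the same fits.

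With the WT peptide the block called 1 gene against Scrambled, where 16.2% of all genes were called: ELOVL5, at 6729, 6112 and 6609 against 6197, 5639 and 6308 normalised counts, was higher in each pair by a mean of 0.10 on the log2 scale (limma adjusted p = 0.53, or 0.0276 with the block). With the block and GC correction together its adjusted p was 0.052. Between the WT and the Mutant peptide it called 1, where 4.09% were called: SCD, at 17891, 21126 and 17319 with WT and 23147, 23682 and 18514 with the Mutant peptide, was lower with WT in each pair (-0.21, adjusted p = 0.814, or 0.0247 with the block). The SCD levels with the Scrambled peptide were 21489, 21073 and 16558, and overlapped both. The 95% intervals of the WT against Scrambled differences, from the fit without the block, were -0.10 to 0.21 for FADS1, -0.11 to 0.26 for FADS2, -0.35 to 0.22 for SCD and -0.39 to 0.47 for FASN. FASN varied most between libraries of a group with the Mutant peptide, where its CV was 27.8%, against 16.1% with Scrambled and 7.6% with WT. It measured 15419, 17587 and 12703 for Scrambled, 17333, 19861 and 11148 for Mutant and 15416, 16824 and 14474 for WT, and replicate 3 was the lowest in each group. The remaining genes ranged from 506 to 630.0 for SCD5, from 1439 to 1720.2 for FADS3 and from 1294 to 1579 for ELOVL6 over the 9 peptide libraries, with overlapping groups. As ratios between paralogues, SCD5 stood at 3.60%, 3.37% and 3.63% of SCD per kb and ELOVL5 at 820%, 794% and 826% of ELOVL6 for Scrambled, Mutant and WT. FADS3 stood at 22.6% ± 3.45, 18.8% ± 2.29 and 20.4% ± 0.592 of FADS2 in the same order, and at 29.3% ± 3.08, 25.1% ± 1.68 and 26.8% ± 0.411 of FADS1.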

How the data were processed

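Stranded mRNA libraries were prepared from DNase-treated total RNA, per the labels' protocols. The submitters' processing notes name hg38, featureCounts for counting and DESeq2 without versions; the aligner is not given in the sources used here. What the authors deposited is a signal, the DESeq2-normalised count of each gene in each library, with a separate table for each experiment. Whole reads were recovered from the size of the steps between low values, within a tolerance of 0.05 reads. The authors also deposited an adjusted p-value per gene for 4 comparisons, which put every one of the 10 genes on the same side of 0.05 as the test used here.

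The test was limma 3.58.1 (R 4.3.3) with an intensity trend, on log2(normalised count + 1) in the 9 libraries of an experiment. Genes with a mean below 10 were left out, which kept 13764 and 13105 genes. Tests were 2-sided with Benjamini-Hochberg adjustment across these genes, at 0.05. Errors of levels are SDs and of fold changes SEs. The smallest p of an exact permutation test of 3 against 3 is 0.1. The fit without the block was run on simulated data for EloB KD against Control KD and for WT against Scrambled. The simulated libraries had no replicate-number effect, so this does not check the block fit.

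The members, lists and tests were chosen with earlier results of these data known. Named are the 10 genes, SREBF1, SREBF2, SCAP, INSIG1, INSIG2, the Elongin subunits, up to 4 genes per list with the smallest adjusted p, and the 5 genes most like FADS1 and FASN; others are said to be named after their values were seen. Deviations from the group means correlated between same-numbered libraries of different groups at 0.236 to 0.566 (knockdown) and 0.254 to 0.715 (peptide). Between differently numbered ones they correlated at -0.439 to 0.0703 and -0.546 to 0.336, so the peptide ranges overlap. The numbers were taken to pair the samples in the block, a pairing that the labels do not state. Alternatives were edgeR 4.0.16 and DESeq2 1.42.0 on recovered reads, quantile or TMM scaling, 2 other pseudocounts, other filters on low counts, the block, a fit of only the 2 groups and leaving out each library; a GC correction was added after seeing the data. Gene positions and exon lengths are from GENCODE 29 (GRCh38), matched to 20219 genes; FASN has no entry among the promoter windows used. Some genes of the lists are not reported here by name.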

Additional observations from a re-analysis of the deposited data

Results flagged for a closer look

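For 5 of the 10 genes the response to the 2 knockdowns differed by the direct limma test of EloB KD against EloC KD. FASN was higher in EloB KD by 0.82 on the log2 scale, ELOVL5 by 0.60 and SCD5 by 0.35. FADS3 differed by -0.48 and ELOVL6 by -0.46, so both were lower in EloB KD. FASN also had the highest CV of the 10 genes in Control KD, 34.3%, where replicate 1 (7701 normalised counts) was below the EloB KD values of 7726 to 9980.3 and the other controls were at 12641 and 15950.3.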

How the results depend on the processing

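No value changed sign past the threshold. Over 18 alternatives for each of the 30 knockdown values of the 10 genes, 511 of 540 kept their side of the threshold. Of the rest, 18 lost and 11 gained a call. Of 540 peptide values 527 kept their side and 13 gained a call. Values that were not called could change sign, as that of ELOVL6 in EloC KD did, between -0.0653 and 0.105. With the replicate block (pairing by number), genes called rose from 2822 to 4996 for EloB KD against Control KD, from 188 to 2122 for WT against Scrambled, from 0 to 1088 for Mutant against Scrambled and from 0 to 536 for WT against Mutant; members called went from 0 to 1, 4 and 1 in the 3 peptide comparisons. With the block and GC correction these gene counts were 6022, 2383, 962 and 705, and members called were 0 for WT against Scrambled (the ELOVL5 call with the block was lost), 5 for Mutant against Scrambled and 1 for WT against Mutant. DESeq2 called 582, 184 and 63 genes in the peptide comparisons, and 1 member with the Mutant peptide. GC correction alone called 8 genes for Mutant against Scrambled. Beyond the calls named above, the block changed no other call of a member. Leaving out 1 library gave 1915 to 2373 genes for EloB KD, 4506 to 5413 for EloC KD, 5170 to 5626 between the knockdowns, 66 to 180 for WT against Scrambled (66 without WT replicate 3), 0 to 1 for Mutant against Scrambled and 0 for WT against Mutant; members called were 4 to 6, 8 and 4 to 5 in the knockdown comparisons and 0 in the peptide comparisons. The cause of these shifts was not tested. Depth did not limit the 10 genes, whose lowest value was 506 normalised counts; the 3 libraries per group limit the precision.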
